A study of Homo sapiens with 4 samples.

Results

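The MAP kinase cascade genes were taken from GENCODE as every protein-coding gene whose symbol is exactly MAPK, MAP2K, MAP3K or MAP4K followed by digits. The rule gave 43 of 20046 protein-coding genes on hg38, with 5 MAP4K, 18 MAP3K, 7 MAP2K and 13 MAPK genes. Their m6A peaks were read from meRIP-seq of OE-19 cells, an established cell line of adenocarcinoma of the esophagogastric junction (AEG), with no treatment or genetic change named for the samples. In this assay an antibody against N6-methyladenosine (m6A) enriches RNA fragments that carry the mark, and a peak is a stretch of the genome with more of these fragments than the background. The series had 2 m6A immunoprecipitation (IP) samples and 2 input samples, and the 2 IP samples each had a list, with 24607 peaks in replicate 1 and 19318 in replicate 2. The study calls the replicates biological, but the sources used here do not say whether they came from separate cultures, so what the spread between them covers is not known. The lists hold no read counts, so the depth behind a peak is unknown, and a gene without a peak is not shown to lack m6A.

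In a MAP kinase cascade, a MAP3K phosphorylates a MAP2K, which phosphorylates a MAPK, and MAP4K enzymes act upstream of some MAP3Ks. The ERK branch answers mainly to growth factors, whereas the JNK and p38 branches answer mainly to stress and cytokines. Growth factor receptors upstream of these kinases are often altered in adenocarcinomas of the stomach and the gastroesophageal junction. m6A is deposited by the METTL3 methyltransferase complex, is frequent around stop codons and in long exons, and often lies in a GGAC motif.

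The sequences under the summits, the positions of highest enrichment, are shown for the kinases with the strongest coding-region peaks, so that the motif can be read beside the values that follow. Each is hg38 reference sequence in the CDS, reaching 50 nt to either side of a summit and written 5′ to 3′ on the gene's strand, with GGAC in capitals. The windows were chr14:70730503-70730603 for MAP3K9 (minus strand, last exon), chr5:56881955-56882055 for MAP3K1 (plus strand, exon 14), chr17:63693634-63693734 for MAP3K3 (plus strand, last exon) and chr6:161049003-161049103 for MAP3K4 (plus strand, exon 3). The MAP3K3 window was centred on the summit of replicate 1, since the one of replicate 2 lies too near the stop codon for a window within the CDS, and the other windows on that of replicate 2.
MAP3K9: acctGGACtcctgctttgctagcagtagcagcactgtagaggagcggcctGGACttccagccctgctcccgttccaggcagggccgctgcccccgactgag
MAP3K1: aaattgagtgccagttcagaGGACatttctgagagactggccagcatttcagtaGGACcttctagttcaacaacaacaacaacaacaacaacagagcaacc
MAP3K3: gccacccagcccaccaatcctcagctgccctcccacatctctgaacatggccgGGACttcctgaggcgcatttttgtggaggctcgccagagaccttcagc
MAP3K4: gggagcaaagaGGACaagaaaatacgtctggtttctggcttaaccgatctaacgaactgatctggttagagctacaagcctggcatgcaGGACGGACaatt
The MAP3K9 window held 2 GGAC motifs, and the A of the nearer motif lay 2 nt from the summit. The MAP3K1 window also held 2, with the nearer A at 6 nt, and the MAP3K3 window held 1, with its A at 5 nt. In MAP3K4 the window held 3, the nearest at 37 nt.

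To find how many of the kinases carried m6A peaks, each peak was assigned by its summit to the exons of the genes. In replicate 1, 29 of 43 genes (67.4%, 95% exact binomial interval 51.5 to 80.9) had at least 1 exonic peak, against 42.4% of all protein-coding genes. In replicate 2 the count was 21 (48.8%, 33.3 to 64.5), against 34.1%. The same 21 genes had a peak in both lists, against 33.4% of all protein-coding genes, and 8 more had a peak in replicate 1 only. No gene had a peak in replicate 2 alone, and 14 genes had none. The cascade genes are longer than most, with a median exonic length of 7034 nt against 4416 nt. In bins of protein-coding genes with the same exonic length, the mean share with a peak was 53.5% in replicate 1, 44.5% in replicate 2 and 43.6% in both lists, and the 3 shares of the cascade genes stood above these by different margins. In all 3 cases the length-bin value lay inside the interval of the cascade genes. The genes were matched on length and not on expression.

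The tiers differed in how often a peak was seen. With a peak in both lists, there were 0 of 5 MAP4K genes, 13 of 18 MAP3K genes, 3 of 7 MAP2K genes and 5 of 13 MAPK genes. For MAP3K genes this was 72.2% (46.5 to 90.3) against 45.5% in their length bins, with the lower bound just above the bins. In replicate 2, with the same 13 genes, the bins stood at 46.5%, level with that bound, and 12 genes were left in both lists when peak midpoints took the place of summits. For MAP2K genes it was 42.9% (9.90 to 81.6) against 41.0%, and for MAPK genes 38.5% (13.9 to 68.4) against 41.8%. The count of 0 among the MAP4K genes allows a share of up to 52.2%, which holds the 44.7% of their bins. In replicate 1, a peak was seen in 1 MAP4K gene (20%, against 54.5% in the bins), 15 MAP3K genes (83.3%, against 55.2%), 4 MAP2K genes (57.1%, against 51.4%) and 9 MAPK genes (69.2%, against 51.7%). The MAPK genes thus stood above their bins in replicate 1 and below them in both lists. No difference between tiers was tested, and the intervals of the 4 tiers overlap.

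**Figure D1:**
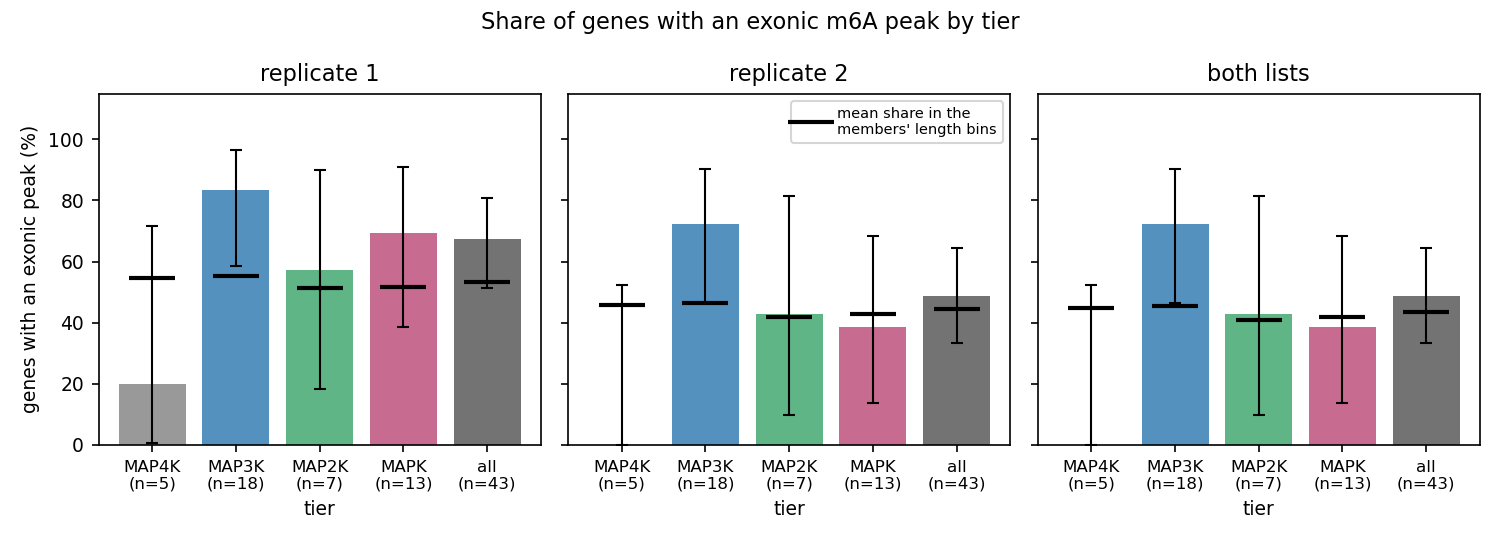
Share of genes with an exonic m6A peak (%, vertical axis) in each tier and in all 43 genes, for replicate 1, replicate 2 and both lists. Bars are shares with 95% exact binomial intervals, and black dashes are the mean share among protein-coding genes in the same exonic-length bins. The MAP3K bar stands above its dash in all 3 panels, and the MAP4K bar is at 0 in replicate 2 and in both lists.

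Counted as peaks, the cascade genes held 63 exonic peaks (replicate 1) and 41 (replicate 2). MAP3K genes held 42 and 30 of them, MAP2K genes 9 and 4, MAPK genes 11 and 7, and MAP4K genes 1 and 0. The authors' fold enrichment, a ratio at the summit over the background of the peak caller, had a median of 6.004 in replicate 1 (range 2.30 to 26.95) and 4.91 in replicate 2 (range 1.62 to 21.2). The medians over all exonic peaks of protein-coding genes were 5.21 and 4.72. By tier, the median in replicate 1 was 6.71 for MAP3K, 5.002 for MAP2K and 6.55 for MAPK genes. In replicate 2 it was 5.10 for MAP3K, 4.18 for MAP2K and 5.78 for MAPK genes, so the order of MAP3K and MAPK differed between the lists. The quartiles of these tiers overlap in both lists.

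**Figure D2:**
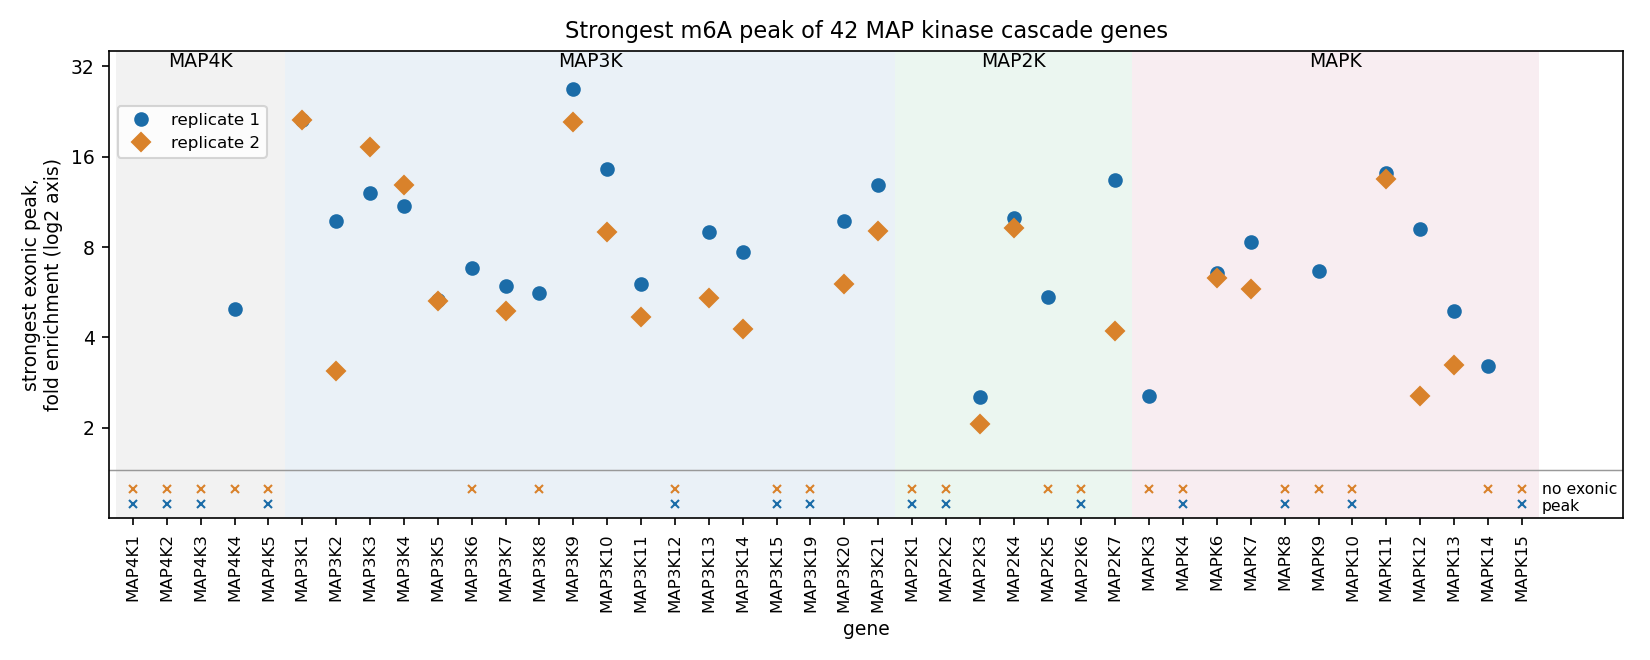
Fold enrichment (log2 axis) of the strongest exonic peak of 42 of the 43 genes in replicate 1 (circles) and replicate 2 (diamonds), with crosses at the foot for a list without an exonic peak in that gene. MAP3K9 and MAP3K1 lie above 20 in both lists, and the MAP4K genes have 1 value among them.

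MAP4K enzymes are STE20-type kinases that act upstream of MAP3Ks, mostly toward JNK. MAP4K4 had 1 peak, in the 3′ UTR at 409 nt past the start of the stop codon, at 4.99-fold in replicate 1, and no peak in replicate 2. MAP4K1, MAP4K2, MAP4K3 and MAP4K5 had no exonic peak in either list. Their exonic lengths ran from 3919 to 7645 nt, beside a median of 4416 nt over all protein-coding genes, and a link of length to the missing peaks was not tested.

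Among the MAP3K genes, MAP3K9 had the strongest exonic peak of the whole cascade on the geometric mean of both lists. MAP3K9 (chr14:70722526-70809534, minus strand), also called MLK1, is a mixed lineage kinase that activates JNK signalling through MAP2K4 and MAP2K7. Its peak lay in the last exon, exon 13, and its fold enrichment was 26.95 (replicate 1) and 20.89 (replicate 2), with −log10 q of 96.9 and 97.7. The summits were in the CDS, 193 and 171 nt before the stop codon. It ranked 9 among 18488 exonic peaks of protein-coding genes in replicate 1 and 11 among 12003 in replicate 2. MAP3K9 was singled out because this peak was known to be strong, so its values are a description and carry no test. Replicate 1 held 6 exonic peaks in the gene and replicate 2 held 4, and all the others were far weaker, between 2.97 and 8.96. One of these, in exon 1, lies where an exon of the divergent transcript MAP3K9-DT also runs, and the lists hold no strand to tell them apart.

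MAP3K1, or MEKK1, joins a kinase domain to ubiquitin ligase activity and feeds JNK and ERK signalling. Its peak in exon 14, an internal exon of 1297 nt, had a fold enrichment of 21.2 in each list with −log10 q of 82.1 and 93.2, and the summits were 4 nt apart. Weaker peaks stood in exon 1 (7.88 and 3.07) and in the 3′ UTR (9.38 and 4.15) in both lists, and a peak of 4.35 in exon 2 was in replicate 1 only. In replicate 2 the exon 14 peak stood slightly above that of MAP3K9, and in replicate 1 below it, so the order of these genes differed between the lists. Both stood above every other cascade gene in each list.

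MAP3K3 (MEKK3), which activates MAP2K5 in the ERK5 branch, had a last-exon peak of 12.1 and 17.3 with −log10 q of 35.8 and 38.7, at 91 and 44 nt before the stop codon. MAP3K2, its close relative with the same target, had a peak in the next-to-last exon at 9.79 and 3.09, and a peak of 3.40 in its last exon in replicate 1 only. MAP3K4, which relays stress to p38 and JNK, had a peak over exon 3, an exon of 1364 nt, at 10.95 and 12.85 with −log10 q of 43.7 and 51.3. MAP3K4 also had shared peaks in its 2 last exons, at 6.97 and 7.17 in exon 26 and at 6.51 and 8.25 in exon 27. MAP3K3 and MAP3K4 were higher in replicate 2, against the direction of most of the cascade's peaks.

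MAP3K7 and MAP3K14 had overlapping peaks of lower fold enrichment than the strongest peaks of MAP3K3 and MAP3K4. MAP3K7 (TAK1), a kinase of TGF-β and cytokine signalling, had 1 peak in the 3′ UTR at 5.95 and 4.90, with summits 82 and 77 nt past the start of the stop codon. MAP3K14 (NIK), the kinase of non-canonical NF-κB signalling, had an exon 4 peak at 5.97 and 4.26. It also had a 3′ UTR peak of 7.69 in replicate 1 that met 2 peaks in replicate 2, of 2.80 and 3.02. The 3′ UTR region is shared with an exon of the antisense gene MAP3K14-AS1, and the strand is not known. MAP3K5 (ASK1), activated by oxidative stress, had a peak in each list but at different places, in the CDS of exon 2 at 5.32 in replicate 1 and in the 5′ UTR at 5.29 in replicate 2. The 5′ UTR label holds on the longest-CDS transcript, and that summit lies outside the Ensembl canonical transcript. MAP3K6 (6.83 in the 3′ UTR and 2.43 in the 5′ UTR) and MAP3K8 (5.64, CDS) had peaks in replicate 1 only. MAP3K12, MAP3K15 and MAP3K19 had no exonic peak.

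To set MAP3K9 beside its relatives, the other mixed lineage kinases, MAP3K10 (MLK2), MAP3K11 (MLK3) and MAP3K21 (MLK4), were described exon by exon. They are separate genes whose coding sequences match that of MAP3K9 at 70.0%, 66.7% and 67.1% of aligned bases, and 67.8%, 64.9% and 62.2% in the part of the CDS that lies in the last exon. The strongest last-exon peaks of all 4 lay in the CDS shortly before the stop codon, and their windows around the replicate 2 summit are shown to compare them with that of MAP3K9 printed above. They were chr19:40215111-40215211 for MAP3K10 (plus strand), chr11:65598346-65598446 for MAP3K11 (minus strand) and chr1:233382442-233382542 for MAP3K21 (plus strand).
MAP3K10: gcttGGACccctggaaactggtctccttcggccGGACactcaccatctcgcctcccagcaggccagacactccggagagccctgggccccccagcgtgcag
MAP3K11: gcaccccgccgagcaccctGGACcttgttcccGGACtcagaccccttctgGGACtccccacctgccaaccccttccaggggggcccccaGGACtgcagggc
MAP3K21: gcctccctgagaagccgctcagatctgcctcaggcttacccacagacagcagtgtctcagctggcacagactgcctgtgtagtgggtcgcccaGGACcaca
MAP3K10 held 2 GGAC motifs in this window, MAP3K11 held 4 and MAP3K21 held 1, with the nearest A at 15, 2 and 45 nt from the summit.

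In the last exon, MAP3K10 had a fold enrichment of 14.6 and 9.0 in the respective lists (−log10 q of 47.9 and 40.8), with summits 14 and 129 nt before the stop codon. MAP3K11 had 6.004 and 4.69 (54.2 and 49.0), at 120 and 103 nt, and MAP3K21 had 10.3 and 8.65 (59.0 and 52.7), at 203 and 217 nt. In both lists the order was MAP3K9, MAP3K10, MAP3K21 and MAP3K11. Over all exons, the strongest MAP3K9 peak was 1.85 times the strongest peak of these 3 paralogues in replicate 1. In replicate 2 it was 2.32 times. The paralogue peak was the last-exon peak of MAP3K10 (14.6) in replicate 1. For replicate 2 it was the first-exon peak of MAP3K21 (9.01), with its summit in the 5′ UTR. The last-exon peaks of MAP3K10 and MAP3K21 lay close to each other in replicate 2, at 8.98 and 8.65.

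Each of the 4 mixed lineage kinases had a summit in the first, the next-to-last and the last exon in both lists. In the first exon the strongest peaks were 8.96 and 2.97 in MAP3K9, and 12.9 and 6.61 in MAP3K10. They were 4.46 and 4.66 in MAP3K11, and 12.9 and 9.01 in MAP3K21. The first exons are long, between 769 and 1288 nt, and hold coding sequence. Their strongest summits lay in the CDS in MAP3K9 and MAP3K10 and in the 5′ UTR in MAP3K11 and MAP3K21, in both lists. In the next-to-last exon the values were 4.25 and 5.45 in MAP3K9, and 8.81 and 4.91 in MAP3K10. They were 4.02 and 1.62 in MAP3K11, and 6.66 and 6.95 in MAP3K21. MAP3K9 thus exceeded all its paralogues in the last exon and not in the first or the next-to-last.

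None of the other 39 cascade genes had this layout, and 71 of 17471 protein-coding genes with at least 3 exons did (0.406%). Among the 6019 of these with an exonic peak in both lists the share was 1.18%. Taken 1 exon at a time, a summit in both lists in the first exon was seen in 2 of the 39 other cascade genes (4.3% of protein-coding genes with at least 3 exons), in the next-to-last exon in 2 (3.04%) and in the last exon in 13 (25.2%). The layout was noticed after the values were seen and has no test. It rests on weak peaks in part: with a fold enrichment of 5 or more required it was left in 1 of the 4 kinases, and with q of 1e-05 or less in 2. When summits that also lie in an exon of another gene were left out, it remained in 3, and MAP3K9 lost it, since its first-exon summit of replicate 2 lies in the MAP3K9-DT exon. Outside the first, next-to-last and last exon, MAP3K10 had a peak in exon 2 in both lists, at 7.52 and 3.55. Peaks in replicate 1 only stood in exon 2 of MAP3K9 (3.76) and of MAP3K11 (2.78), and in exon 5 of MAP3K10 (9.21).

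**Figure D3:**
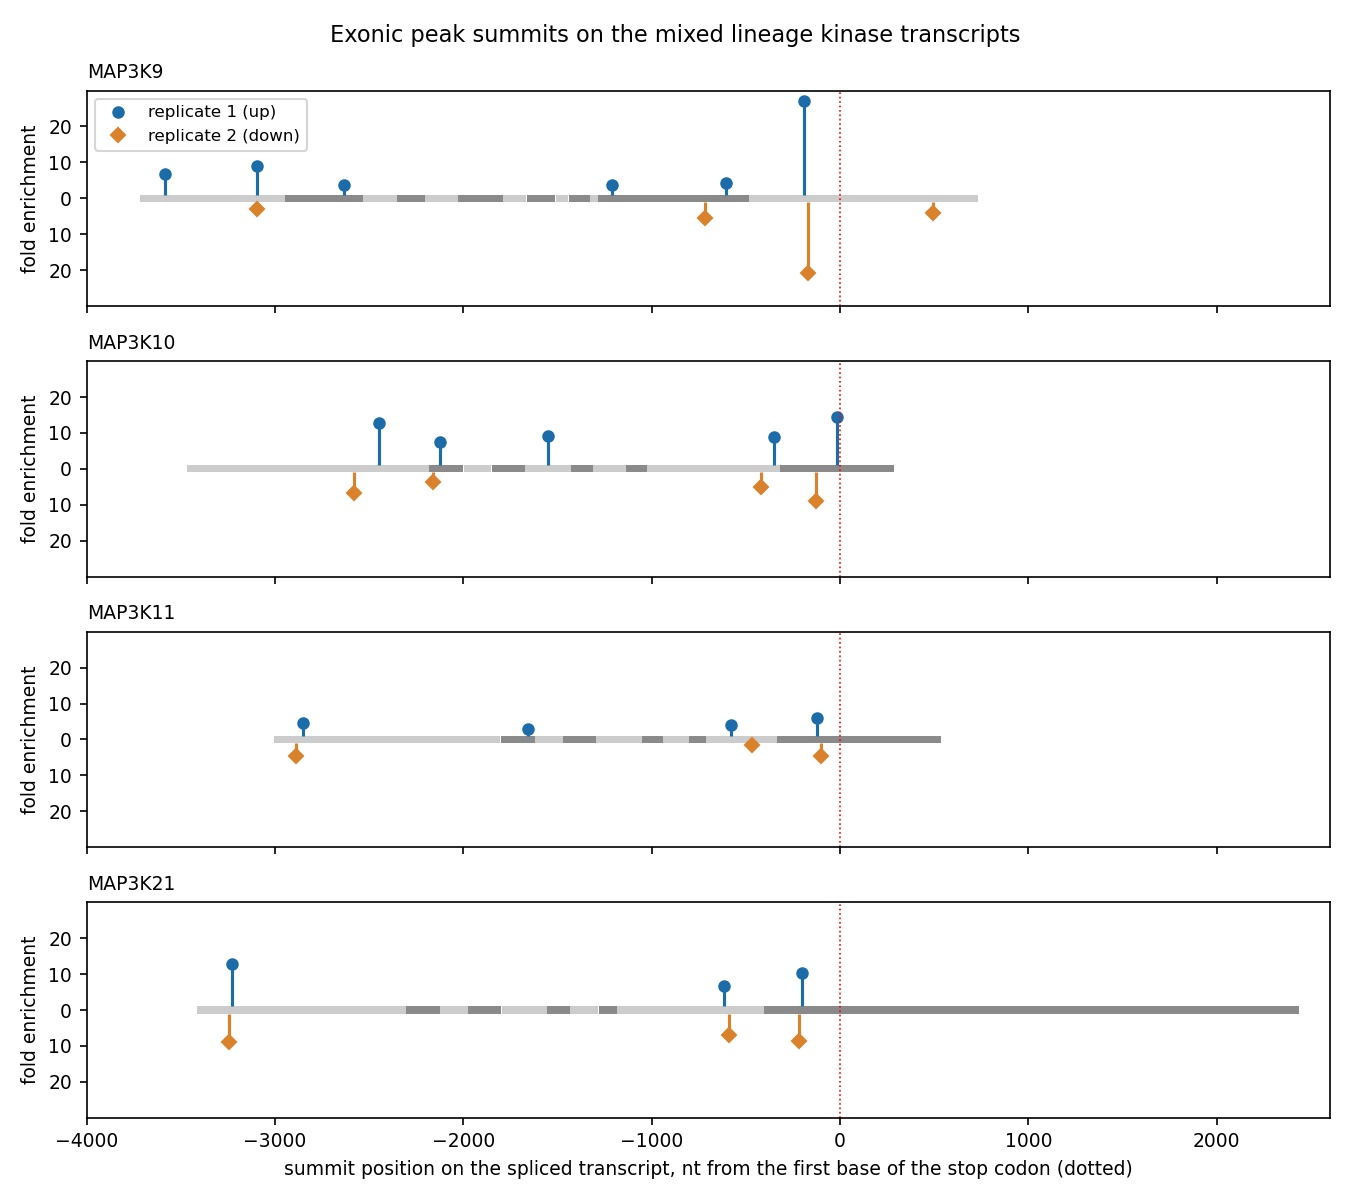
Exonic peak summits of the 4 mixed lineage kinases on their spliced transcripts, in nt relative to where the stop codon starts (dotted line), with fold enrichment upward for replicate 1 and downward for replicate 2; light and dark grey blocks are alternate exons. All 4 have summits in the first and the last 2 exons in both lists, and the last-exon peak of MAP3K9 reaches 26.95 and 20.89.

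Further relatives outside the mixed lineage core differed. MAP3K13 (LZK), a leucine zipper-bearing kinase of JNK signalling, had a peak in exon 11, an exon of 787 nt, at 9.004 and 5.42 (−log10 q of 15.3 and 10.4). Its second peak, at 5.59 and 4.83, lay in the 3′ UTR with summits 29 and 196 nt past the start of the stop codon. MAP3K20 (ZAK), a sensor of ribosome stalling, had 1 peak in the last exon at 9.75 and 6.01 (−log10 q of 21.4 and 12.1), 147 and 324 nt before the stop codon. MAP3K12 (DLK), the closest relative of MAP3K13 and known from neurons, had no peak, also not in its exons 2 and 11 of 482 and 625 nt.

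The MAP2K genes fell into 3 with overlapping peaks, 1 with a peak in replicate 1 only and 3 without. MAP2K4, which phosphorylates JNK and p38 kinases, had a 3′ UTR peak at 9.97 and 9.25 with −log10 q of 60.8 and 60.1, at 351 and 331 nt past the start of the stop codon. A second 3′ UTR peak, at 5.92, was in replicate 1 only. MAP2K7, the other activator of JNK, had a peak at the stop codon at 13.4 and 4.22 with −log10 q of 70.7 and 24.8, and its summits lay 8 and 4 nt past the start of the stop codon. A CDS peak of MAP2K7 in exon 10 stood at 4.35 and 4.13, and peaks of 3.15 and 5.002 were in replicate 1 only. MAP2K3, which activates p38 kinases, had a weak 3′ UTR peak at 2.30 and 2.06 with −log10 q of 11.5 and 9.06, and a peak of 2.53 in the first exon in replicate 1 only. MAP2K5, the activator of ERK5, had a 5′ UTR peak of 5.44 in replicate 1 only. MAP2K1 and MAP2K2, the MEK kinases of the ERK branch, and MAP2K6, a p38 activator, had none. The 3 of 7 genes with a peak in both lists stood near the share in their length bins, given above.

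Among the MAPK genes, the p38 kinases are described first. MAPK11 (p38β) had a 3′ UTR peak at 14.1 and 13.4 with −log10 q of 42.7 and 38.9, 221 and 204 nt past the start of the stop codon, and a first-exon peak at 6.69 and 5.92. A next-to-last exon peak of 5.15 in replicate 1 lay under the same wide peak in replicate 2. MAPK12 (p38γ), its neighbour on chromosome 22, had a 3′ UTR peak at 9.17 and 2.55 with −log10 q of 22.4 and 2.93, and MAPK13 (p38δ) a 3′ UTR peak at 4.90 and 3.23 with −log10 q of 29.8 and 15.98. The MAPK12 pair differed more between the lists than any other pair of the cascade. MAPK14 (p38α) had a 3′ UTR peak of 3.22 in replicate 1 only. The p38 genes were thus 3 of the 5 MAPK genes with a peak in both lists, a grouping made after the values were seen, and the tier as a whole stood near its length bins.

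The other MAPK genes in both lists were MAPK6 and MAPK7, both with the peak in a long coding exon. MAPK6 (ERK3), an atypical MAP kinase, had 1 peak in exon 4, of 1186 nt, at 6.55 and 6.29 with −log10 q of 51.7 and 52.9. MAPK7 (ERK5), the target of MAP2K5, had a peak over exon 4, of 1079 nt, at 8.31 and 5.78 with −log10 q of 45.2 and 33.9. These peaks overlapped, but their summits in replicates 1 and 2 lay 562 nt apart. Replicate 2 had a further peak of 2.80 in exon 5 that the same wide peak of replicate 1 overlapped. MAPK3 (ERK1), a kinase of the ERK branch, had a weak 3′ UTR peak of 2.55 in replicate 1 only. Of the JNK genes, MAPK9 (JNK2) had a 5′ UTR peak of 6.67 in replicate 1 only, and MAPK8 (JNK1) and MAPK10 (JNK3) had none. MAPK4 (ERK4) and MAPK15 also had none. 

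The sequences of the MAP2K and MAPK peaks are shown to set them beside those of the MAP3K genes. For the CDS peaks of MAPK6 (chr15:52046558-52046658, plus strand) and MAPK7 (chr17:19381349-19381449, plus strand), the sequence within 50 nt of the replicate 2 summit is given. For MAP2K7 (chr19:7912373-7912401, plus strand, CDS) and MAPK11 (chr22:50264661-50264689, minus strand, 3′ UTR), 29 nt around the GGAC nearest the replicate 1 summit are given.
MAPK6: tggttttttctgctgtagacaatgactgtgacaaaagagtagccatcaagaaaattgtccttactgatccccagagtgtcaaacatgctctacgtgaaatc
MAPK7: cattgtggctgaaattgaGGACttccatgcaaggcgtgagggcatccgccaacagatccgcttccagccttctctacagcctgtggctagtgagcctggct
MAP2K7: ctgagtcaccgcGGACtagcggcgtcctg
MAPK11: cactctccactgGGACctgactgtggggt
The MAPK6 window held no GGAC, which says only that these letters are not in that window, and the MAPK7 window held 1, with its A at 30 nt from the summit. The nearest motif lay 50 nt from the summit in MAP2K7 and 54 nt in MAPK11.

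Most peaks of replicate 2 were also seen in replicate 1. Of the 41 peaks in replicate 2, 40 overlapped a peak of replicate 1 by at least 1 bp (97.6%, 87.1 to 99.9), against 95.9% of all exonic peaks of protein-coding genes. Of the 63 peaks in replicate 1, 38 overlapped a peak of replicate 2 (60.3%, 47.2 to 72.4), against 60.6%. Both shares were near those of all protein-coding genes. The median fold enrichment in replicate 1 was 8.10 for the shared peaks and 4.35 for the others. The same split over all protein-coding genes is not given here, so the contrast is not a result about the cascade. The strongest unshared peak was 1 of MAP3K10 in exon 5, at 9.21.

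The overlapping peaks made 37 pairs in 20 genes, with 27 in MAP3K, 4 in MAP2K and 6 in MAPK genes. Their summits were a median of 23 nt apart, and 20 pairs had summits 25 nt apart or less. Fold enrichment was higher in replicate 1 in 30 of 37 pairs (81.1%), against 80.2% of 11018 pairs over all protein-coding genes. The median log2 ratio of replicate 1 over replicate 2 was 0.37 for the cascade and 0.43 for all pairs. It ranged from −0.52 in MAP3K3 to 1.85 in MAPK12. On the log2 scale, the fold enrichments of the 37 pairs had a Pearson r of 0.693 and a Spearman rho of 0.575, beside 0.702 and 0.687 over all pairs. Pairs of 1 gene share its transcript and all pairs share the same 2 libraries, so these coefficients are descriptions.

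**Figure D4:**
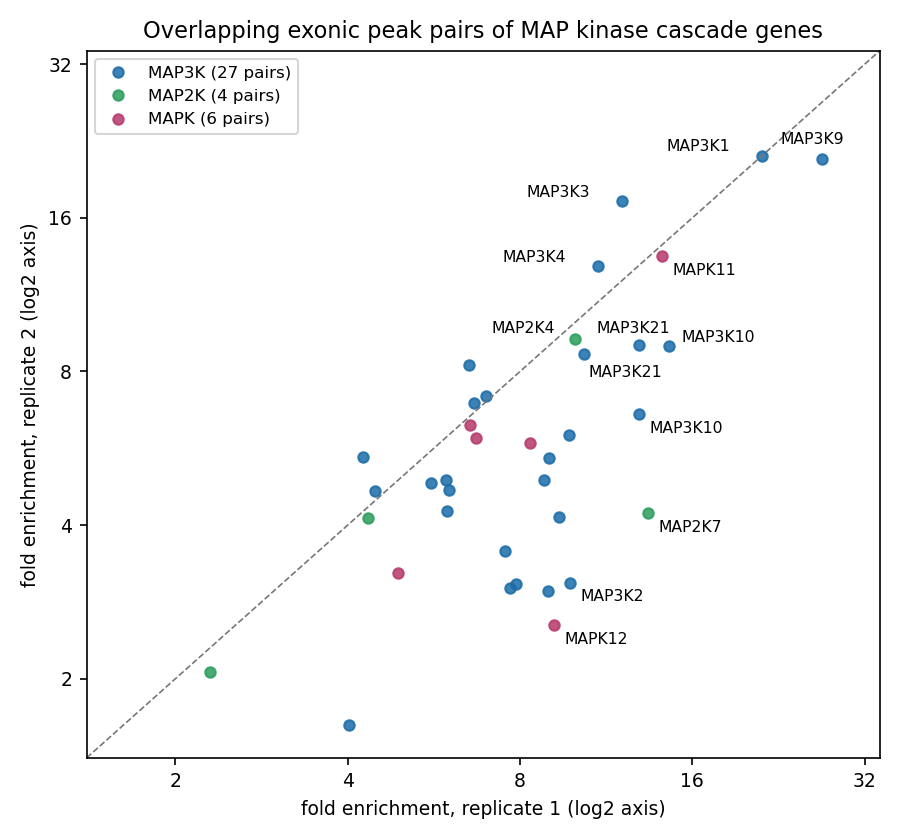
Fold enrichment of the 37 overlapping peak pairs in replicate 1 (horizontal) and replicate 2 (vertical), both on log2 axes, coloured by tier, with the line of equal values dashed. In 30 pairs the point lies below the line, MAP3K9 and MAP3K1 stand at the top right, and MAPK12, MAP3K2 and MAP2K7 lie farthest below the line.

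Along the transcript, the summits gathered near the stop codon. Within 200 nt of it lay 19 of 62 summits in replicate 1 (30.6%, 19.6 to 43.7) and 14 of 41 in replicate 2 (34.1%, 20.1 to 50.6). The same window took 9.88% and 9.53% of the length of the transcripts concerned, below the lower bound in both lists. Over all protein-coding genes the share of summits there was 24.5% and 27.1%, inside the intervals of the cascade. In replicate 1, 1 summit of MAP3K11 lay outside the reference transcript and was left out.

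The rest of the CDS held 26 summits (41.9%) in replicate 1 and 19 (46.3%) in replicate 2, against 52.1% and 54.7% of the transcript length. The rest of the 3′ UTR held 10 (16.1%) and 5 (12.2%), against 31.0% and 28.8%, and the 5′ UTR held 7 (11.3%) and 3 (7.32%), against 6.99% and 6.96%. Over all protein-coding genes the shares in replicates 1 and 2 were 48.5% and 47.4% in the CDS, 18.1% and 19.8% in the 3′ UTR, and 8.88% and 5.71% in the 5′ UTR, all inside the intervals of the cascade. The only 5′ UTR summits in both lists at overlapping places were those of MAP3K11 and MAP3K21, in their long first exons.

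The exons of the cascade genes were then sorted by place and length. Of the 18 internal exons longer than 400 nt, 9 had a summit in both lists (50%, 26.0 to 74.0), against 44.8% of such exons in all protein-coding genes with at least 3 exons. Of the 606 internal exons of 400 nt or less, 5 did (0.825%, 0.268 to 1.91), against 0.427%. First exons held a summit in both lists in 6 of 43 genes (13.95%, 5.30 to 27.9, against 4.3%), and last exons in 17 of 43 (39.5%, 24.98 to 55.6, against 25.2%). The intervals of both internal classes and of the last exons hold the value of all protein-coding genes, and that of the first exons lies above it. First and last exons were not matched on length or expression. Of the 6 first exons, 4 are those of the mixed lineage kinases, which are between 769 and 1288 nt long. The limit of 400 nt was chosen after values were seen, and limits of 300 and 500 nt gave 47.6% and 56.2% for the longer internal exons.

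The 9 long internal exons with a summit in both lists belonged to MAP3K1 (exon 14), MAP3K4 (exon 3), MAP3K9 (exon 12), MAP3K10 (exon 9), MAP3K13 (exon 11), MAP3K14 (exon 4), MAP3K21 (exon 9), MAPK6 (exon 4) and MAPK7 (exon 4). Exon 2 of MAP3K5 and exon 2 of MAP3K9 had a summit in replicate 1 only, and exon 5 of MAPK7 in replicate 2 only. The other 6 had no summit. They were exons 2 and 11 of MAP3K12, exon 2 of MAP3K13, exons 10 and 12 of MAP3K19 and exon 2 of MAPK4. Of these 6 exons, 5 belong to genes without any exonic peak.

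**Figure D5:**
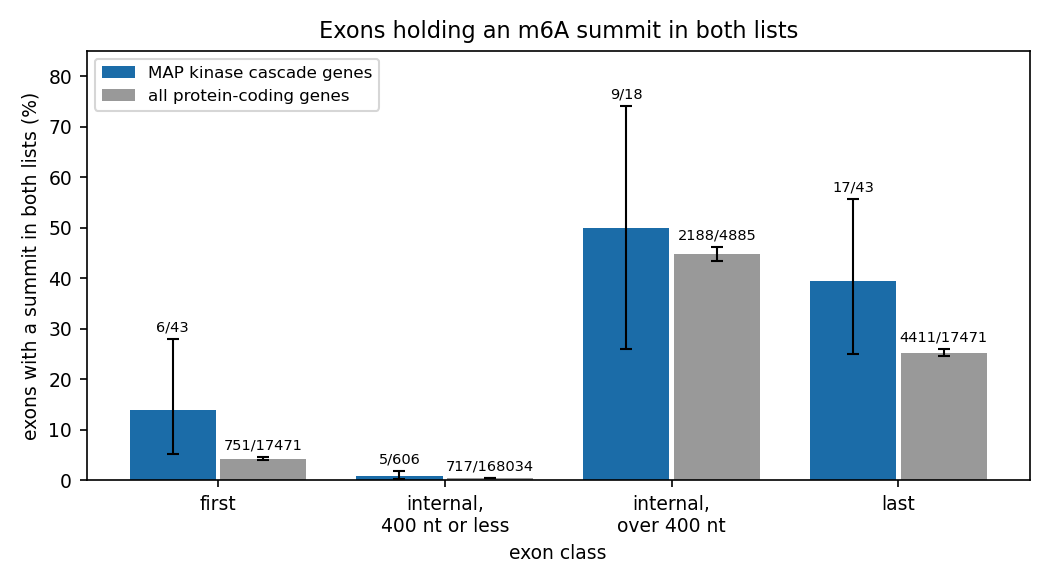
Share of exons with an m6A summit in both lists (%, vertical axis) by exon class, for the 43 cascade genes and for all protein-coding genes with at least 3 exons, with counts above the bars and 95% exact binomial intervals. Internal exons over 400 nt reach 50% in the cascade and 44.8% in all genes, and shorter internal exons stay under 1% in both.

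GGAC was searched within 50 nt of each summit on the strand of the gene. It was found at 37 of 63 summits in replicate 1 (58.7%, 45.6 to 71.0) and at 24 of 41 in replicate 2 (58.5%, 42.1 to 73.7), against 49.7% and 51.7% of summits in all protein-coding genes. GTCC, which is GGAC read on the opposite strand, was found at 27.0% and 34.1% of the cascade's summits, against 31.5% and 29.5%. The GGAC intervals hold the values of all protein-coding genes in both lists. The distance from summit to nearest motif moved with the list. It was 22 and 2 nt in MAP3K9, 2 and 6 nt in MAP3K1, 5 and 42 nt in MAP3K3, and 1 and 2 nt in MAP3K11, for replicates 1 and 2. A motif near a summit is a description and does not place the modified base.

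Other genes of the pathway with different symbols were counted from a list of 46. Of these, 21 had an exonic peak in both lists (33.4% of all protein-coding genes did), 10 in replicate 1 only, 0 in replicate 2 only and 15 in neither. These 46 genes were not matched on length or expression, so the count does not show more peaks than in genes of like length. At the level of the MAP3Ks, 5 of 7 kinases with other symbols had peaks in both lists, with ARAF at 5.77 and 4.87, while BRAF had none. Scaffolds and partners had 6 of 11 in both lists, kinases downstream of MAPKs 5 of 11, GTPases and adaptors 3 of 11, STE20-type kinases 1 of 2 and transcription factors 1 of 3, and NLK, an atypical MAP kinase, had none. The strongest shared peaks were in TAB1 (9.20 and 10.97), the partner of MAP3K7, and MAPKAPK5 (11.1 and 8.86), a substrate of MAPK6 and p38 kinases. SOS2 (10.0 and 7.88) followed, an exchange factor for RAS, and then SOS1, whose strongest peaks in the respective lists were 9.06 and 9.23. All these were weaker than the peaks of MAP3K9 and MAP3K1. 

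The label of the cells was set beside marker genes. Of 8 epithelial markers, CDH1 and CDX2 had a peak in both lists, VIL1 in replicate 1 only, and EPCAM, KRT8, KRT18, KRT19 and ERBB2 in neither. Of 6 markers of immune, endothelial and mesenchymal cells, 1 had a peak, COL1A1 at 3.11 in replicate 1 only. Over all protein-coding genes, 42.4% had a peak in replicate 1 and 33.4% in both lists. A peak needs both RNA and m6A, so a missing peak does not show missing RNA and these lists can check the cell type only in part. The 8 annotated pseudogenes of cascade genes had 0 peaks. No share over all pseudogenes is given here, so this count is not a result about them.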

How the data were processed

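The data were m6A peak lists from meRIP-seq of the OE-19 line. Groups followed the sample labels (2 m6A IP and 2 input samples), and peak lists of the input samples were not analysed here. According to the study's methods, fragmented total RNA was incubated with an anti-m6A antibody, while the labels speak of UV-fixed, lysed cells. Paired-end reads were mapped to hg38 and peaks were called per sample with MACS2. The methods name TopHat2 as the aligner, and the submitters' processing notes name fastp, HISAT2 and MACS2. Versions, and whether input served as control, are not given in the sources used here. Per peak, the authors deposited fold enrichment, a ratio at the summit over the caller's background, the p-value and the q-value, each as −log10, and an unused score. The largest q-value in the deposited lists was 0.0491 in replicate 1 and 0.0497 in replicate 2. Because the background is local and the lists hold no read counts, fold enrichment does not measure m6A stoichiometry, and a peak also depends on expression.

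Summits were assigned to exons of GENCODE version 44, and to every gene whose exon held them, since the lists carry no strand. Regions and exons were read on each gene's longest-CDS transcript, with a stop codon window of 200 nt on each side. An overlap of 1 bp made a peak shared. Length was matched in 20 bins of exonic length. Intervals are 95% Clopper-Pearson intervals and cover counting error only, with genes or peaks as the units. With 1 group there was no comparison of conditions and no test was run. CDS identity was taken from a global alignment with free end gaps. Alternatives were stricter q and fold enrichment limits, other overlap, window, bin and transcript rules, and each replicate left out. The members and lists were chosen with earlier results of these data known. Every member was counted, and a few items are not reported here by name. Members described in full were MAP3K9 and 6 paralogues, and in each tier up to 6 members with the highest geometric mean fold enrichment of a shared peak. Of the other pathway genes, up to 4 were named by the same measure. ARAF, BRAF and NLK were named after their values were seen. Counting was tested on simulated data. The software was Python 3.11.15 with Biopython 1.88, pysam 0.24.0, pandas 2.3.3, scipy 1.17.1 and numpy 2.4.6.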

Additional observations from a re-analysis of the deposited data

Results flagged for a closer look

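Peaks with a summit in an intron of a cascade gene, and in no exon of any gene, entered no comparison above. There were 3 in replicate 1 and 6 in replicate 2. The count of replicate 2 was flagged because it was above a fixed floor of 3 counts. That floor is not an expected number, and no share of intronic peaks over all genes is given here, so the count is not a result about the cascade. In replicate 2 they lay in MAP4K1 (7.14), MAP4K5 (6.60), MAP3K20 (7.49), MAPK14 (3.97) and MAPK10 (6.28 and 3.76), given as fold enrichment. In replicate 1 they lay in MAP3K9 (7.34), MAP3K14 (3.78) and MAPK14 (3.42). None of these was shared between the lists, and the MAPK14 peaks were at different places. A further 4 intronic summits (replicate 1) and 2 (replicate 2) lay in an exon of another gene. Among these, the peaks of LEO1 inside MAPK6 and of ARHGAP24 inside MAPK10 were in both lists.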

How the results depend on the processing

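No paired analysis was possible because peak lists of only 1 group, the m6A IP, were analysed here. Of 199 values recomputed under an alternative, 181 were labelled as unmoved. Counts had to stay within 1.5 times, shares within their interval, and fold enrichments within the standard deviation between the replicates. Length-bin shares had to stay within a fixed margin. Some values could not move, since the strongest MAP3K9 peak passes every limit used and a MAP4K count of 0 stays 0 under stricter limits. The number 181 is thus no measure of robustness. A fold enrichment of 5 or more left 13 genes with a peak in replicate 2 and 13 in both lists, with 1 MAP2K and 3 MAPK genes in both. Under that limit, 45.2% of the peaks of replicate 1 were shared, and the median fold enrichment rose by construction to 7.78 in replicate 1 and 7.71 in replicate 2. Of the peaks in replicate 2, 82.9% were shared when each peak had to cover 50% of the other and 73.2% when summits had to lie within 100 bp. With a stop codon window of 100 nt, 17.1% of the summits of replicate 2 lay in it. A motif window of 100 nt gave GGAC at 81.0% and 85.4% of summits in replicates 1 and 2, and one of 25 nt at 36.5% and 29.3%. With 1 replicate left out, the genes with a peak numbered 21 (replicate 2 alone) to 29 (replicate 1 alone). The ranges were 0 to 1 for MAP4K, 13 to 15 for MAP3K, 3 to 4 for MAP2K and 5 to 9 for MAPK genes. The summits in first, next-to-last and last exon remained in 2 of the 4 mixed lineage kinases with q of 1e-05 or less and in 1 with a fold enrichment of 5 or more. Read depth and expression are unknown, which limits every statement on missing peaks. The intervals of the tiers are wide because each holds 5 to 18 genes.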
